A study of Caenorhabditis elegans with 2 samples.

Results

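Binding of the chromatin protein ATHP-1 was examined at 8 tubulin genes of Caenorhabditis elegans: tba-1, tba-2, tbb-1, tbb-2 and tbg-1, which act broadly or in the germ line, and tbb-4, mec-7 and mec-12, which act in neurons. They were taken by name, with earlier results of these data known, from 19973 protein-coding genes in the Ensembl annotation, and all 8 were found there. The data are peak lists from chromatin immunoprecipitation and sequencing (ChIP-seq) of whole animals in 1 group with 2 biological replicates. The animals were of strain OP685, a stable transgenic line with the genotype unc-119(tm4063) III; wgIs685. They made ATHP-1 with a GFP-FLAG tag at its carboxy terminus, were young adults of both sexes pooled, grown for 64 hours from starved first-stage larvae, and their chromatin was captured through the GFP tag. No second condition and no peak list from untagged animals was compared here, so the reference for each count is the share of all protein-coding genes that met the same rule.

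Microtubules are polymers of alpha- and beta-tubulin dimers, and gamma-tubulin starts new microtubules at centrosomes and other organising centres. In C. elegans, tba-1 and tba-2 encode alpha-tubulins and tbb-1 and tbb-2 beta-tubulins of the embryo, the germ line and many other cells, where they build the spindle, and tbg-1 encodes gamma-tubulin. The alpha-tubulin MEC-12 and the beta-tubulin MEC-7 form the bundled microtubules of the touch receptor neurons, and the beta-tubulin TBB-4 is found in ciliated sensory neurons.

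Of the 8 genes, tbb-1, tba-1 and tba-2 had a reproducible promoter summit. A summit is the highest point of a called region, and the promoter window began 500 bp before each 5′ end and reached 200 bp into the gene. This is 37.5% of the 8, beside 4.71% of all protein-coding genes. All 3 were among the 5 broad or germline genes, and none was among the 3 neuronal genes. The reproducible list holds 1649 regions, which are the 1649 strongest of the 30000 regions listed from both replicates together (the pooled list). By its name the pooled list holds background as well as peaks, and each replicate list also has 30000 regions. A summit found only in those longer lists may therefore be background. A region's strength is the authors' signal score, measured relative to a control. Scores and ranks of different genes are compared only within a list, apart from averages over the replicate lists. The lowest signal in the reproducible list was 105.6. Of the members, tba-2 lay nearest above that limit with a signal of 197, and tbb-2 nearest below it with 48.9 in the pooled list.

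The strongest of the 8 was tbb-1. Its summit had a signal of 373 and rank 45 of 1649 in the reproducible list, and tbb-1 was 38th by strength among the 941 genes with a reproducible promoter summit. In replicate 1 the signal was 138 at rank 109 of 30000, and in replicate 2 it was 229 at rank 40. The summit was at -243 bp from the 5′ end of tbb-1 in the reproducible list and in replicate 2, and at -237 bp in replicate 1, so the replicates placed it 6 bp apart. The region was chrIII:10742534-10742801 (ce11), which lies outside any exon, in the 377 bp between tbb-1 (WBGene00006536, chromosome III, 10740868 to 10742432, minus strand) and rib-2 on the opposite strand. The gene rib-2 encodes a glycosyltransferase that makes heparan sulfate. The same summit was at -135 bp from the 5′ end of rib-2, nearer than to tbb-1, and these lists cannot say which promoter it belongs to.

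The tbb-1 region is printed below because it is the strongest site of the 8 genes, followed by the same distances upstream of the other 3 beta-tubulin members, where the lists gave no reproducible summit. All are read 5′ to 3′ on the minus strand, the coding strand of each gene, from -369 to -102 bp; for mec-7 the stretch starts at -341 bp, short of the upstream gene. Positions on the RefSeq WBcel235 genome are chrIII:10742534-10742801 for tbb-1, chrIII:4017729-4017996 for tbb-2, chrX:9436995-9437262 for tbb-4 and chrX:7776791-7777030 for mec-7. Capitals mark the word AAATTT, the word TTTGAA, the word GGGCGG or the word CGCG, each searched on both strands.
tbb-1: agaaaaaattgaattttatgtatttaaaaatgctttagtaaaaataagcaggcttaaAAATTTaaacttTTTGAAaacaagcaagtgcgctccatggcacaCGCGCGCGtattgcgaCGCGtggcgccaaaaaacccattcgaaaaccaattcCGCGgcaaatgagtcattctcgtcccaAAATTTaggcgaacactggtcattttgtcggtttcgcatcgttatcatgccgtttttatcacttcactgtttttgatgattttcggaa
tbb-2: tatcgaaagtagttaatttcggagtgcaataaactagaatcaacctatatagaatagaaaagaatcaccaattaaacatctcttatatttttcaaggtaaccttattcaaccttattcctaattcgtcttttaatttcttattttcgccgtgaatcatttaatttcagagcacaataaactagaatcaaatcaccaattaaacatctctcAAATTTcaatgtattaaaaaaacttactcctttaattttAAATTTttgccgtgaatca
tbb-4: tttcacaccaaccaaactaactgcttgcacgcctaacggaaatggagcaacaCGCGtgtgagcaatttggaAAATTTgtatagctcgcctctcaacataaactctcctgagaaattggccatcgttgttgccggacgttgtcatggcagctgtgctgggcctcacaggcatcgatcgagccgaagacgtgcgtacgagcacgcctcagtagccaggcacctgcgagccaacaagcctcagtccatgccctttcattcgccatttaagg
mec-7: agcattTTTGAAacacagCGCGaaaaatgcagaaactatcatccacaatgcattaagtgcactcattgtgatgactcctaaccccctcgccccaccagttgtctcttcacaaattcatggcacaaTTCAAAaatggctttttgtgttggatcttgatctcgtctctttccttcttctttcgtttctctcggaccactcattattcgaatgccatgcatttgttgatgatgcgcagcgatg

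The tbb-1 stretch held CGCG 5 times, counting overlapping copies, and all 5 lay within 28.5 bp of the summit. The reproducible region of tba-1 held it 0 times and that of tba-2 2 times, so it was not shared by the members with a reproducible summit. The tbb-2 stretch held it 0 times, and tbb-4 and mec-7 had 1 copy each. CGCG was picked after the sequences were seen, and 25.6% of the same stretches upstream of all 19973 protein-coding genes held it at least once. The word AAATTT occurred 2 times at tbb-1, 2 times at tbb-2, 1 time at tbb-4 and 0 times at mec-7, and was present in 52.8% of all stretches. TTTGAA occurred 1 time at tbb-1 and 2 times at mec-7, with 60.7% of all stretches holding it, and GGGCGG was in none of the 4 (5.70% of all stretches). Base content differed widely among the 4 stretches, with 61.2% A and T at tbb-1, 73.1% at tbb-2, 47.4% at tbb-4 and 57.1% at mec-7, beside a median of 66.0% over all genes (quartiles 62.3 and 69.8%). At tbb-1 the 51 bases centred on the summit were 54.9% G and C, against 38.8% over its whole region. A match of letters is a description and does not show a binding site.

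The alpha-tubulin genes tba-1 and tba-2, both on chromosome I, had summits of similar strength. For tba-1 (WBGene00006528, 9785781 to 9787624, minus strand) the signal was 209.7 in the reproducible list at rank 294, with 114 in replicate 1 at rank 201 and 101 in replicate 2 at rank 437. For tba-2 (WBGene00006529, 12964674 to 12966795, minus strand) it was 197 at rank 339, with 91.2 in replicate 1 at rank 399 and 109 in replicate 2 at rank 350. The order of these alpha-tubulin genes thus differed between the replicates: tba-1 was the higher in replicate 1 and tba-2 in replicate 2. In both replicates they were among the 1649 strongest regions, as was tbb-1, and tbb-1 was above both.

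The summits of tba-1 and tba-2 sat at different distances from their genes. That of tba-1 was far upstream, at -406 bp in the reproducible list, -425 bp in replicate 1 and -397 bp in replicate 2, from the outer of its 2 annotated 5′ ends. The reproducible region (chrI:9787949-9788140) lies in the 1100 bp between tba-1 and cox-5B, a divergent gene for a subunit of cytochrome c oxidase. A second, stronger summit in that stretch, with a signal of 459.9 and rank 25, was at -16 bp from the 5′ end of cox-5B and 679 bp from the tba-1 summit. Unlike the pair tbb-1 and rib-2, each gene of this divergent pair therefore had a separate summit in its promoter window. The lists cannot say which of these promoters the tba-1 summit belongs to. The tba-2 summit was at -164 bp in the reproducible list and replicate 2 and at -214 bp in replicate 1, a gap of 50 bp, in the region chrI:12966851-12967015. The gene upstream of tba-2 is pbs-2, a proteasome subunit gene on the same strand 420 bp away. It had no reproducible summit in its own window. The annotated start codon of tba-2 is 532 bp inside the outer 5′ end, so its summit is far from the coding sequence. In the 51 bases at the summit, G and C made up 62.7% at tba-1 and 41.2% at tba-2, beside a median of 47.1% over the 1649 reproducible summits (quartiles 39.2 and 54.9%).

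**Figure D1:**
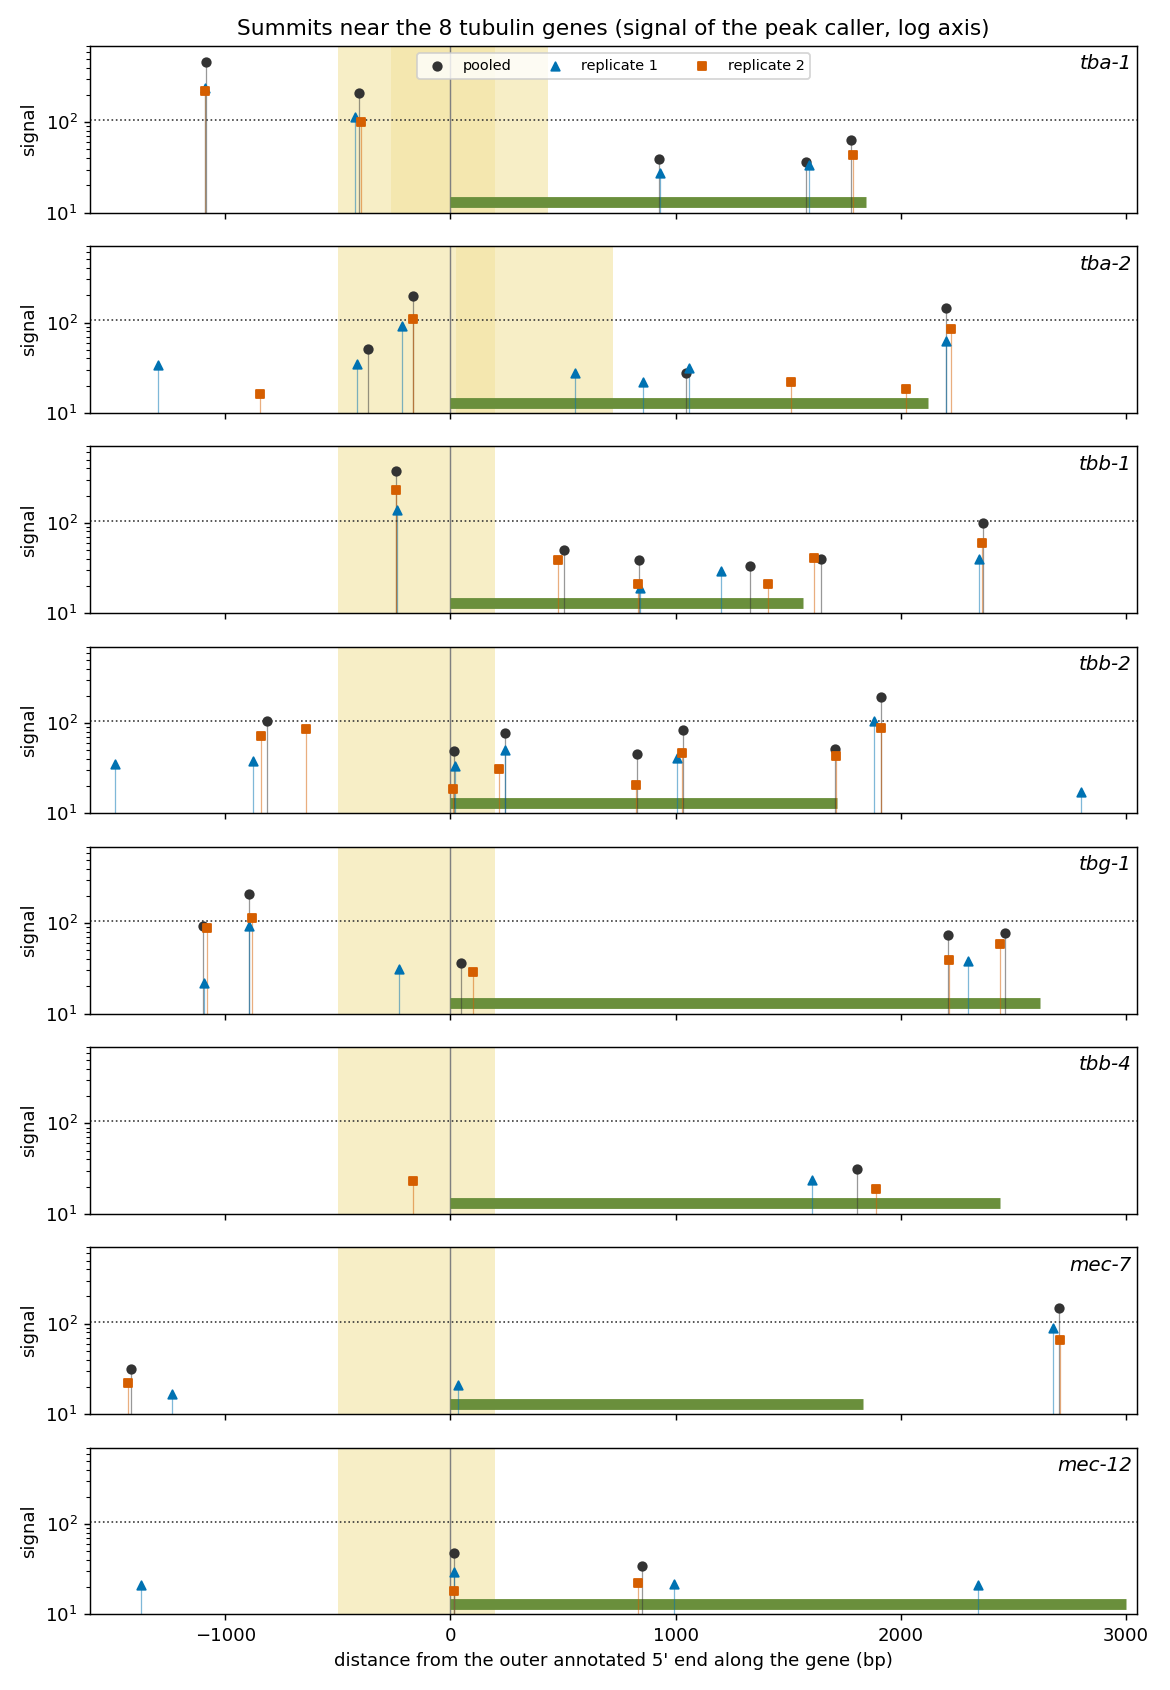
Summits near the 8 tubulin genes, by distance in bp from the outer annotated 5′ end along the gene (x axis) and signal of the authors' peak caller on a log axis (y axis). Circles are the pooled list, triangles replicate 1 and squares replicate 2; yellow bands are promoter windows, green bars the genes (mec-12 runs past the right edge), and the dotted line is the lowest reproducible signal of the pooled list, 105.6. In the windows, pooled summits lie above the line only for tba-1, tba-2 and tbb-1.

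The other broad genes, tbb-2 and tbg-1, had only weak summits in the promoter window. The deposited −log10 q-value is low where the evidence for a region is weak. In the pooled list it was 0.592 for tbb-2 and 0.244 for tbg-1, beside 3.44 for tba-1, tba-2 and tbb-1. For tbb-2 (WBGene00006537, chromosome III, 4015910 to 4017627, minus strand) the signal was 48.9 in the pooled list at rank 9185 of 30000, 33.3 in replicate 1 at rank 6090 and 18.7 in replicate 2 at rank 23198. The summit lay just inside the gene in all 3 lists, at 18, 20 and 12 bp. The beta-tubulin genes tbb-1 and tbb-2 therefore stood far apart: in replicate 1 their signals were 138 and 33.3, and in replicate 2 they were 229 and 18.7. For tbg-1 (WBGene00006540, chromosome III, 9626536 to 9629154, minus strand) the signal was 36.1 in the pooled list at rank 17183, 30.8 in replicate 1 at rank 7417 and 29.0 in replicate 2 at rank 9396. The summit was at -227 bp in replicate 1 and at 100 bp in replicate 2, 327 bp apart. The regions around them were 416 bp wide and overlapped, so the lists do not show whether this is the same site.

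Reproducible summits did lie near tbb-2 and tbg-1, but outside their promoter windows. One with a signal of 210.9 and rank 287 was at -896 bp from the 5′ end of tbg-1. It is at -165 bp from the 5′ end of rpac-19, a gene for a subunit shared by RNA polymerases I and III. That gene lies 91 bp upstream of tbg-1 on the same strand, with ubc-7, a ubiquitin-conjugating enzyme gene, upstream of it in turn. The summit had 92.01 in replicate 1 and 115.5 in replicate 2 at nearly the same place (-895 and -880 bp). For tbb-2, a weaker reproducible summit was at -815 bp, with a signal of 106.4 and rank 1618, close to the end of the list. It is a less certain site, because replicate 1 had only 37.7 at rank 4310 there, and replicate 2 had 2 summits, with 86.5 at -640 bp and 72.7 at -842 bp.

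Reproducible summits also lay just past the 3′ ends of tbb-2 and tba-2. These were noticed after the values were seen, and a window from 200 bp upstream to 500 bp downstream of the 3′ end was then set for all genes. A reproducible summit lay in it for 2 of the 8 genes, beside 4.10% of all protein-coding genes. At tbb-2 the summit was 195 bp past the 3′ end, with a signal of 194 (rank 357), and with 106.0 in replicate 1 and 88.2 in replicate 2. It lies inside the gene C36E8.4, which is transcribed towards tbb-2. At tba-2 the summit was 80 bp past the 3′ end, with a signal of 145.6 (rank 791), and with 62.6 in replicate 1 and 85.1 in replicate 2. The gene C47B2.2 begins 94 bp downstream of tba-2 on the same strand, and the summit was at -15 bp from its 5′ end. Inside the 8 genes, from 5′ to 3′ end, there was no reproducible summit. The strongest pooled summit inside a member was in a coding exon of tbb-2, with a signal of 83.7, and the next was in tbg-1, with 78.5.

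The neuronal genes tbb-4, mec-7 and mec-12 had no reproducible summit in the promoter window, a count near the 4.71% of all genes. The alpha-tubulin gene mec-12 (WBGene00003175, chromosome III, 3131574 to 3139234, minus strand) had a weak summit in its 5′ untranslated region in every list. Its signal was 47.9 in the pooled list at rank 9619, 29.2 in replicate 1 at rank 8584 and 18.3 in replicate 2 at rank 24123, at 18, 17 and 18 bp from the 5′ end. Its −log10 q-values in those lists were low, at 0.559, 0.562 and 0.0739. Its pooled signal was thus close to that of tbb-2 and above that of tbg-1, so the neuronal and broad genes overlapped in signal below the reproducible limit. The beta-tubulin gene tbb-4 (WBGene00006538, chromosome X, 9434452 to 9436893, minus strand) had a summit only in replicate 2, with a signal of 23.1 at -168 bp (rank 15592). The beta-tubulin gene mec-7 (WBGene00003171, chromosome X, 7774856 to 7776689, minus strand) had one only in replicate 1, with 20.9 at 33 bp (rank 18677). Neither summit was in the pooled list. Their −log10 q-values in those replicate lists were 0.220 at tbb-4 and 0.179 at mec-7. The pooled list ends at a signal of 25.1, so a weaker site there would not be listed.

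Beyond the promoter of mec-7, a reproducible summit with a signal of 150.7 (rank 723) lay 872 bp past its 3′ end, with 89.4 in replicate 1 and 66.6 in replicate 2. This summit was inside a tRNA gene (WBGene00023214, chromosome X, 7773965 to 7774037), which itself lies within the span of deg-1, a degenerin channel gene on the opposite strand. No reproducible summit lay within 1500 bp of tbb-4 or mec-12. Chromosome and class are partly confounded in the 8 genes. Both X-linked members are neuronal, and reproducible promoter summits were found at 5.24% of autosomal and 1.39% of X-linked protein-coding genes. In whole animals, binding in a few cells and weak binding in many cells cannot be told apart, which bears on genes used in few neurons.

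**Figure D2:**
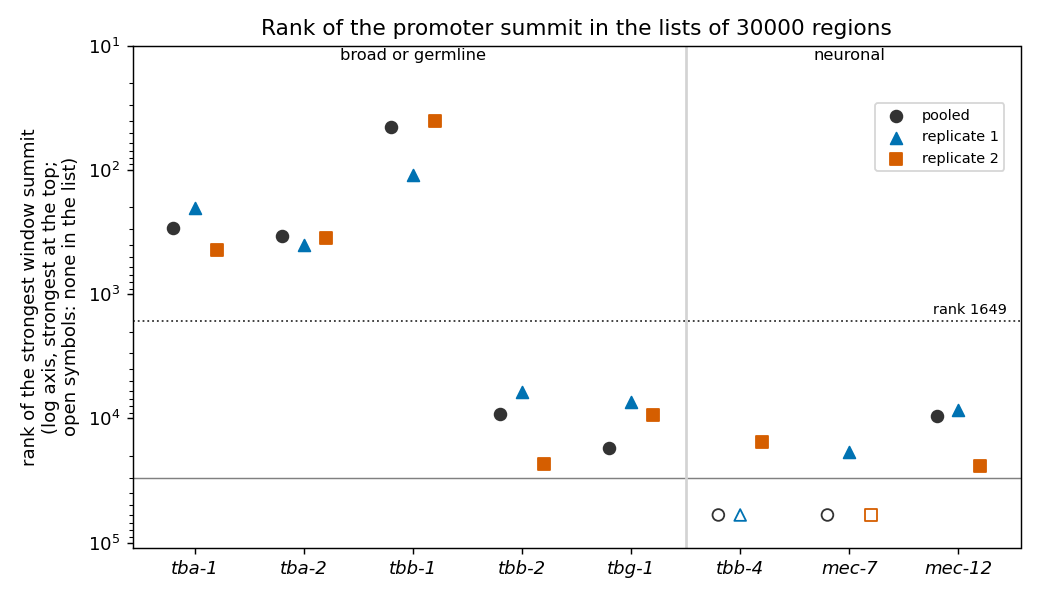
Rank of each gene's strongest promoter summit (y axis, log scale, strongest at the top) in the pooled list (circles), replicate 1 (triangles) and replicate 2 (squares), with open symbols where the list has no summit in the window. The dotted line is rank 1649, the length of the reproducible list; tba-1, tba-2 and tbb-1 lie above it in all 3 lists and the other 5 genes lie below it.

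Counting any summit, however weak and including entries that may be background, took in most of the 8 genes. The pooled list gave 6 of the 8 genes a summit in the promoter window, beside 30.7% of all protein-coding genes. The replicate 1 list gave 7 of 8, beside 29.8%, and the replicate 2 list 7 of 8, beside 31.6%. All 5 broad genes had a summit in each of these lists, and of the 3 neuronal genes the pooled list held 1 and each replicate list 2. Among the 6140 genes with a pooled summit, the median signal of the strongest was 50.1 (quartiles 35.4 and 79.3). The signals of mec-12, tbb-2 and tbg-1, from 36.1 to 48.9, were below that median and those of tba-2, tba-1 and tbb-1, from 197 to 373, above the upper quartile.

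**Figure D3:**
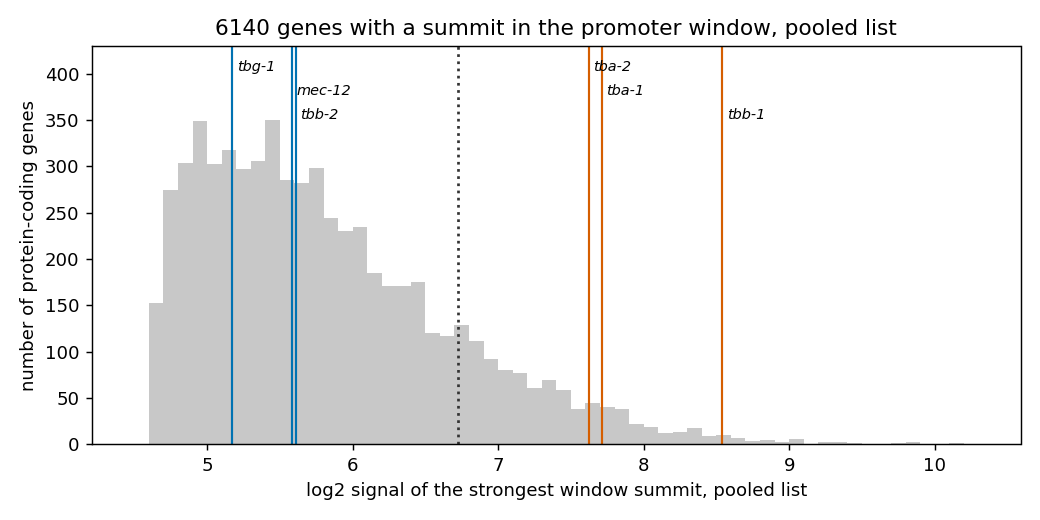
Histogram of the log2 signal of the strongest promoter summit (x axis) for the 6140 protein-coding genes with one in the pooled list (number of genes on the y axis). Vertical lines mark the 6 tubulin genes in that list, orange for tba-2, tba-1 and tbb-1 above the reproducible limit (dotted line) and blue for tbg-1, mec-12 and tbb-2 below it.

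The 3 genes with a reproducible summit stood above the other members in each replicate taken alone. The reproducible list was made from these same replicates, so this is a description and not separate support. The lowest signal of tbb-1, tba-1 and tba-2 was 91.2 in replicate 1, where the highest of the other 5 was 33.3, and 101 in replicate 2, where the highest of the others was 29.0. Over the replicate lists, which were scored separately, signals averaged 183 ± 64.0 for tbb-1, 107 ± 9.12 for tba-1 and 100.2 ± 12.7 for tba-2 (SD, n = 2). They averaged 29.9 ± 1.29 for tbg-1, 26.01 ± 10.3 for tbb-2 and 23.7 ± 7.72 for mec-12. The tbg-1 average joins summits at -227 bp and 100 bp, which are 327 bp apart, so its small SD cannot be taken to describe 1 site. Neighbours in this order, tba-1 with tba-2 and tbg-1 with tbb-2 with mec-12, differed by less than the larger of their SDs. The replicates placed tbb-2 and mec-12 at far lower ranks in replicate 2 than in replicate 1, while tbg-1 had similar ranks in both but at summits far apart.

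The promoter window at the outer 5′ end of each of the 8 genes was searched for exact repeats. In none of these windows did a word of 36 or 50 bases recur elsewhere in the genome. This was true of 77.6% (36 bases) and 84.5% (50 bases) of all protein-coding genes. The windows at the inner 5′ ends of tba-1 and tba-2 were not searched. Tubulin genes are close relatives, and in their coding exons up to 3.06% of words of 36 bases (tbb-2) recurred elsewhere, with 1.57% in mec-7, 1.45% in tba-2 and 0.417% in tba-1. Where the other copies lie was not looked up. Reads wholly within such words cannot be assigned to 1 place. G and C content of the windows ran from 34.1% at mec-12 to 43.9% at mec-7, beside a median of 35.0% over all genes. The windows with the most G and C, mec-7 (43.9%) and tbb-4 (42.4%), both X-linked, had no reproducible summit. Those of tba-1 (41.7%), tbb-1 (40.2%) and tba-2 (36.1%) had one, and tbb-2 (36.7%), tbg-1 (35.5%) and mec-12 (34.1%) had none. A link between G and C content and binding was not tested.

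The genes most like the 3 in signal across both replicates were named by a rule, among 928 genes with a reproducible summit and a summit in each replicate. For tbb-1 the nearest was rib-2, which shares its summit, and then K12D12.5, with 138 in replicate 1 and 222 in replicate 2. For tba-1 they were sms-3, a sphingomyelin synthase gene, with 111 and 100.5, and egl-17, a fibroblast growth factor gene, with 115.1 and 106.7. For tba-2 they were cogc-2, for a Golgi tethering protein, and klp-18, a spindle kinesin gene, with the same values of 91.9 and 111. Because these values are identical, cogc-2 and klp-18 may share 1 summit, which was not looked up. The likeness rests on 2 replicate lists alone.

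The other tubulin genes of the worm had no reproducible promoter summit. These are tba-4, tba-5, tba-6, tba-7, tba-8, tba-9, tbb-6 and ben-1, and 0 of 8 were in the reproducible list, beside 4.71% of all protein-coding genes, and 1 of 8 in the pooled list, beside 30.7%. A count of 0 of 8 is near the share of all genes. The gene in the pooled list was ben-1, the beta-tubulin through which benzimidazole drugs act, with a signal of 51.4 at -488 bp and rank 8180. Replicate 2 placed a summit of 36.8 at -403 bp there, and replicate 1 had none. Replicate 2 also gave tba-5 a summit, with 15.9 at 113 bp, near the end of the list. The count in the reproducible list was 1 of 8 where a region only had to overlap the window, beside 5.47% of all genes. It was 1 of 8 with a window from 1000 bp upstream to 500 bp downstream, beside 6.22%.

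Among genes that work with tubulin, 4 in the lists for nucleation and for plus-end, severing and stabilising proteins had a reproducible promoter summit. Of 12 genes for microtubule nucleation and the centrosome, 2 had a reproducible summit (16.7%, beside 4.71% of all protein-coding genes) and 9 a pooled one (beside 30.7%). Their median pooled signal was 52.2, beside 50.1 over all genes with a pooled summit. The first 2 were sas-5, a centriole assembly gene, with 152 (84.1 in replicate 1 and 60.5 in replicate 2), and zyg-1, which encodes the kinase for centriole duplication, with 108.7 (38.9 and 73.3). Of 15 genes for plus-end, severing and stabilising proteins, 2 had a reproducible summit (13.3%) and 6 a pooled one, with a median of 68.4. They were klp-7, a microtubule-depolymerising kinesin, with 110.9 (42.5 and 71.4), and mei-2, a subunit of the severing enzyme katanin, with 107.1 (55.1 and 62.9). The last 3 of these lay near the end of the list, at rank 1486 for klp-7, 1534 for zyg-1 and 1582 for mei-2.

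Of the 7 genes for tubulin folding cofactors, 6 had a pooled promoter summit, beside 30.7% of all protein-coding genes, with a median signal of 55.1, and the strongest was tbcc-1 with 93.7 (52.6 in replicate 1 and 45.9 in replicate 2). Of 11 modifying enzyme genes named, 10 matched the annotation and 5 of those had a pooled summit, with a median of 39.7. The strongest was ttll-4, a tubulin glutamylase gene, with 85.5 (42.8 and 45.1). In the reproducible list there were 0 of 7 cofactor genes and 0 of 10 enzyme genes, counts that lie near the 4.71% of all genes. The strongest promoter summits of these 4 lists were below those of tba-2, tba-1 and tbb-1 in the pooled list.

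**Figure D4:**
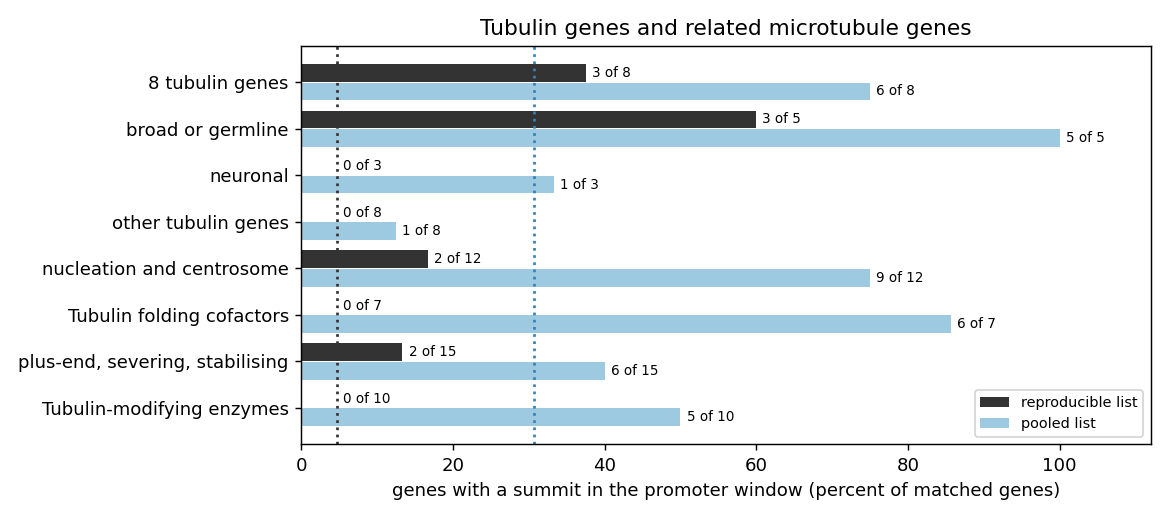
Share of genes with a summit in the promoter window (x axis, percent of matched genes) for the 8 tubulin genes, their 2 classes and 5 lists of related genes, in the reproducible list (black bars) and the pooled list (blue bars). Dotted lines give the share of all protein-coding genes, 4.71% and 30.7%; the broad or germline tubulin genes have 3 of 5 in the reproducible list and 5 of 5 in the pooled list.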

How the data were processed

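The files are ChIP-seq peak lists on ce11 from 2 biological replicates. According to the readme that the authors deposited, a replicate list comes from that replicate's alignment and a control, and the pooled list from both alignments and a control. The reproducible list is named for a cut on the irreproducible discovery rate. Aligner, peak caller and threshold: not given in the sources used here. Read depth is unknown. Regions were ranked by the signal score the authors deposited. Their deposited −log10 q-value, tied among the strongest regions, was not used for ranking. Lists on ce10 were not used.

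Summits (region start plus deposited offset, written 1-based) were assigned to genes through 29314 5′ ends of protein-coding transcripts from Ensembl release 115 on WBcel235 (ce11); a summit counted for every gene whose window held it. Of the annotated start codons, 99.89% read ATG in the RefSeq genome of the same build. No statistical test was made: there is 1 group, and the members and lists were chosen with earlier results of these data known. Counts are given beside all protein-coding genes, except for counts of any summit under changed settings. Named genes are the members; listed genes with a reproducible summit, or else the strongest pooled one; genes sharing a summit; and the 2 genes nearest in summed absolute log2 signal difference. Neighbouring genes, the 3′ end window and CGCG were named after values were seen. Alternatives were other lists, a stricter list, other windows, region overlap, nearest 5′ end only, and start codons. Assignment was tested on simulated data. Python 3.11.15, numpy 2.4.6, pandas 2.3.3 and matplotlib 3.10.9 were used.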

Additional observations from a re-analysis of the deposited data

How the results depend on the processing

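The members with a reproducible summit were tba-1, tba-2 and tbb-1 with the strongest regions of either replicate alone, with the stronger 0.5 of the list and with region overlap in place of the summit. Taking as many of the strongest pooled regions gave the same members by construction, since those regions are the reproducible list itself. The share of all genes then ran from 2.56% (stronger 0.5) to 5.47% (overlap), with 4.2% and 5.00% for replicates 1 and 2 alone. The promoter window changed the count most. With 200 bp to each side, tba-2 alone was left, 1 of 8 genes and 1 of the 5 broad ones, beside 2.60% of all genes. With 1000 bp upstream to 500 bp downstream, tbb-2 and tbg-1 were added, giving 5 of 8 and 5 of 5 broad genes, beside 6.22%. Giving each summit to the nearest 5′ end only moved that of tbb-1 to rib-2 (2 of 8 left, beside 3.8% of all genes). Start codons in place of 5′ ends left out tba-2 (2 of 8, beside 4.43%). The neuronal count was 0 of 3 under all 9 alternatives, 1 of which is the main list again. The stronger 0.5, the narrower window and the nearest 5′ end rule only take summits away, so they could not raise it. A count of 0 of 3 is near the share of all genes, which was at most 6.22% in these settings. Counts of any summit under changed settings ran from 4 to 7 of the 8 genes. The lowest were for the pooled and replicate 1 lists with 200 bp to each side and for the stronger 0.5 of the replicate 2 list. The share of all genes was not computed for these counts of any summit, so they are not read further. Of 45 recounts of related lists, 8 moved by over 1.5 times. Depth is unknown for these lists, so the absence of a weak site cannot be told from too few reads.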

Other observations

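Among genes that mark cell types, those of neurons and the germ line included some with a reproducible promoter summit, which 4.71% of all protein-coding genes had. Of 10 genes active in many neurons, 2 had one (20%). They were snb-1, the synaptobrevin gene of synaptic vesicle release, with 163 (46.7 in replicate 1 and 125 in replicate 2), and unc-31, needed for dense-core vesicle release, with 109.2 (48.6 and 60.6). The unc-31 summit was near the end of the reproducible list, at rank 1519. Replicate 1 placed it at -90 bp and replicate 2 at -377 bp, so the values may not describe 1 site. For snb-1 the summits were at -252 and -370 bp, with rank 2397 in replicate 1 and 244 in replicate 2. Of 12 genes of the touch receptor neurons, the cells of mec-7 and mec-12, 0 had a reproducible summit, which is near the share of all genes, and 2 had a pooled one, beside 30.7% of all genes. The stronger was mec-6, a gene for a protein of the touch-sensing channel complex, with a pooled signal of 88.8 at -399 bp (40.7 in replicate 1 and 50.1 in replicate 2).

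Of 8 germline genes, 2 had a reproducible summit (25%, beside 4.71% of all genes): cpg-1, an eggshell proteoglycan gene, with 370.7 (196 and 181), and mex-5, an embryonic RNA-binding protein gene, with 123.8 (65.8 and 50.7). The summit of cpg-1 was at rank 47 in the reproducible list, beside rank 45 for tbb-1. The counts were 0 of 5 body wall muscle genes and 0 of 5 intestine genes, near the share of all genes. A pooled summit was found at 4 of 5 muscle and 1 of 5 intestine genes. It was found at 4 of 10 neuron and 5 of 8 germline genes, beside 30.7% of all genes. The strongest pooled signals were 65.3 at unc-27 for muscle and 87.7 at act-5 for intestine. These lists are short and no test was made on them.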
